A study of Mus musculus with 8 samples.

Results

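Nutrient transporters of 10 solute carrier families were examined in regulatory and conventional CD4 T cells of mouse spleen and small intestine. Members were all probes whose gene symbol on the array belongs to the families Slc1a, Slc2a, Slc3a, Slc6a, Slc7a, Slc16a, Slc27a, Slc36a, Slc38a or Slc43a. This gave 120 of 25697 probes, for 85 of 16593 named genes. The test took in genes with a probe that 2 or more of the 8 arrays read above background, meaning a detection p under 0.05; 38 transporter genes, among 7916 genes in all, met this filter. By family, the tested genes were 7 of 15 in Slc7a, 6 of 10 in Slc38a, 6 of 11 in Slc2a, 4 of 18 in Slc6a, 4 of 12 in Slc16a, 4 of 7 in Slc1a, 3 of 3 in Slc36a, 2 of 6 in Slc27a, 1 of 2 in Slc43a and the 1 gene of Slc3a.

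Cells came from C57B6 mice of both sexes, 7 to 14 weeks old, that carried FOXP3GFP, so that green fluorescence marks cells expressing the regulatory T cell factor Foxp3. Control mice were MHCII+/-, FOXP3GFP, and experimental mice were K14Aβb, FOXP3GFP, called K14 here, in which MHC class II is missing outside the thymus. The name K14Aβb refers to a class II beta chain driven by the keratin 14 promoter, which is active in epithelium. Live TCRb+CD4+CD8-B220- cells were sorted as GFP+ regulatory cells (Treg) or GFP- conventional cells (Tcon) from spleen or small intestine (gut), and cells of several mice were pooled into each sample. Each of the 8 combinations of tissue, cell type and genotype was hybridised to 1 array, so each main comparison rests on 4 matched pairs, and p-values measure the spread between these pools only.

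The arrays were similar in depth of signal, with 8822 to 9677 probes above background and medians of raw intensity from 211.4 to 250.2. All 9 T cell markers with a probe were above background on every array, and the Treg markers were above background in 11 of 11 on the Treg arrays and in 8 to 9 on the Tcon arrays. Of the 11, 10 were higher in Treg (median log2 2.66 for the list) and 4 passed the test described below: Il2ra, Nrp1, Tnfrsf18 and Tnfrsf9. The exception was Foxp3 itself, the gene behind the sort: the 1 of its 3 probes that every array detected was dim, at log2 6.76 to 7.08, and not higher in Treg (log2 -0.16 ± 0.14, lower in 4 of 4 pairs, limma adjusted p = 0.637), and the others were below background except for 1 on the gut K14 Treg array. The gut control Tcon array stood apart: 25 of 29 markers of exocrine pancreas were above background there, with a summed signal of 84080, against 2 to 6 markers and 1446 to 3909 on the other arrays. Of 23 markers of intestinal epithelium, 13 were above background on that array, 6 to 7 on the other gut arrays and 5 to 6 on the spleen arrays; their summed signal was 13140 to 33100 in gut and 12400 to 40960 in spleen. Sort, tissue preparation and pool differ between gut and spleen together and cannot be told apart from tissue, and in bulk RNA fewer cells of a type cannot be told apart from less RNA per cell.

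Solute carriers move sugars, amino acids, lactate, fatty acids and related metabolites across the plasma membrane and the membranes of organelles. In T cells, activation raises glucose uptake through Slc2a1 and Slc2a3, uptake of large neutral amino acids through the dimer of Slc7a5 and Slc3a2, and glutamine uptake through Slc1a5, Slc38a1 and Slc38a2. Lysosomal members, among them Slc38a9 and Slc36a1, take part in signalling of amino acid supply to the growth kinase mTORC1.

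A group of 13 transporter genes was above background on all 8 arrays: the hexose carriers Slc2a1, Slc2a3, Slc2a8 and Slc2a10, the amino acid carriers Slc7a5, Slc7a6, Slc38a1, Slc38a2, Slc38a4, Slc1a7 and Slc16a10, the lactate carrier Slc16a3 and the taurine carrier Slc6a6. Of these, Slc2a10, Slc38a1, Slc38a4, Slc1a7 and Slc16a3 never exceeded log2 7.56, near the lowest detected readings of the arrays (log2 6.58 to 6.89). The other probes of Slc16a3 and Slc2a10 were below background on every array. No probe was above background on any array for 41 genes. These included Slc1a5, a glutamine carrier, Slc7a1, an arginine carrier, Slc16a1, a lactate carrier, and Slc7a11, the cystine and glutamate exchanger, whose probes reached at most log2 5.77, 5.90, 6.04 and 5.72, below the lowest detected reading of any array (log2 6.58 to 6.89). Such a probe gives a bound for that probe and does not show that the transcript was absent. Another 6 genes were above background on 1 array each: Slc1a2, Slc27a4 (both spleen control Treg), Slc38a5 (spleen K14 Treg, highest log2 8.84), Slc27a2 (gut control Treg), Slc6a9 (gut K14 Tcon) and Slc7a2 (gut K14 Treg).

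**Figure D1:**
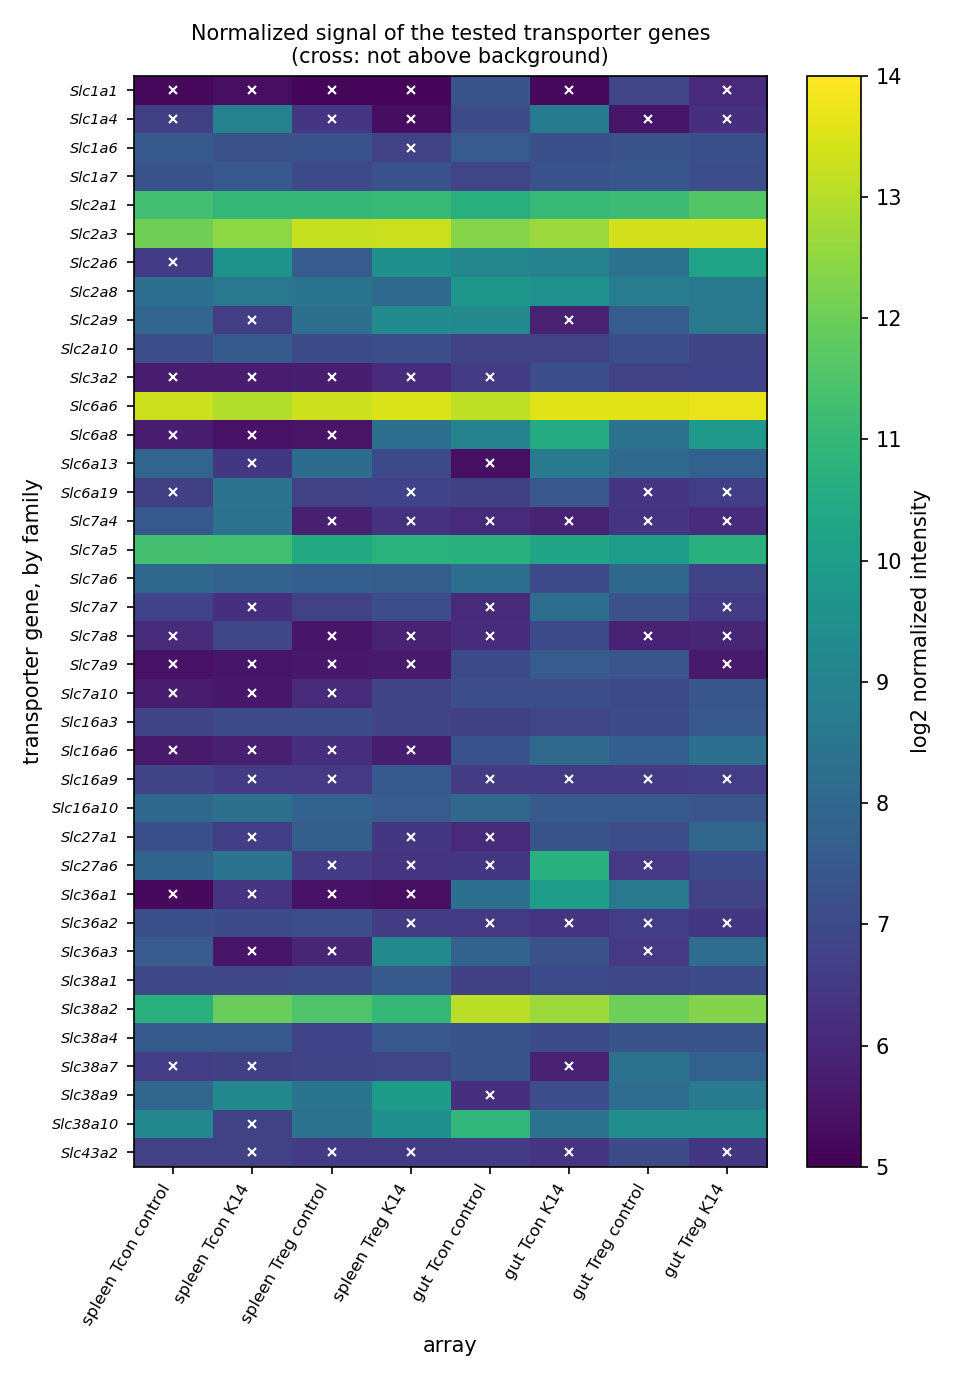
Log2 normalized intensity (colour) of the 38 tested transporter genes (rows, by family) on the 8 arrays (columns); crosses mark readings not above background. Slc6a6, Slc2a3, Slc2a1, Slc7a5 and Slc38a2 were above background on every array, and Slc16a6 and Slc36a1 on the 4 gut arrays only.

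Of the comparisons, tissue gave the only transporters that passed the test: 2 genes, Slc16a6 and Slc36a1, both higher in gut than in spleen in 4 of 4 pairs. Slc16a6 belongs to the monocarboxylate carriers and in zebrafish moves ketone bodies out of liver cells. Slc36a1 cotransports protons with glycine, alanine and proline, in gut epithelium and at the lysosome. With limma and Benjamini-Hochberg adjustment over all 7916 genes, 2.37% of genes tested passed between tissues, and 1.62% passed with higher values in gut. Of all genes, 43.2% were higher in gut on average. The 38 transporters had a median log2 difference of 0.12, against -0.07 over all genes, with 24 higher and 14 lower in gut. Over the 13 members above background on every array it was -0.07 (-0.09 over all such genes), and by pair the members' median was -0.01 in control Tcon, 0.31 in control Treg, 0.01 in K14 Tcon and 0.08 in K14 Treg.

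Slc16a6 read log2 5.65 in control Tcon, 6.22 in control Treg, 5.78 in K14 Tcon and 5.77 in K14 Treg of spleen, none above background. In gut the same 4 populations read 7.28, 7.70, 8.11 and 8.27, all above background. The tissues did not overlap, and both cell types and both genotypes were higher in gut. Against the detection floor of the spleen arrays, Slc16a6 was at least 2.07-fold higher in gut; the measured log2 difference, which uses spleen readings below background, was 1.99 ± 0.24 (SE, 4 pairs, limma adjusted p = 0.0329). Its other probes were also below background on all spleen arrays, but 1 was above background on 3 gut arrays and the other, at log2 8.05, on the gut control Tcon array only. The call was kept without the gut control Tcon array, in a fit without blocks for pairs (limma adjusted p = 0.036). It was lost when any 1 of the 4 pairs was left out (limma adjusted p 0.0921 to 0.113).

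Slc36a1 read log2 5.24, 5.43, 6.36 and 5.38 in spleen, in the same order of populations, and no spleen array was above background. In gut it read 8.30, 8.63, 10.03 and 6.79. The gut K14 Treg pool was the lowest of the gut arrays, just above background, and the gut K14 Tcon pool the highest. The difference was at least 3.13-fold, with a measured log2 difference of 2.84 ± 0.40 (SE, 4 pairs, limma adjusted p = 0.0461). Without the gut control Tcon array, in a fit without blocks for pairs, the measured difference was 3.08 and did not pass (limma adjusted p = 0.104). Slc36a1 also did not pass in such a fit on all arrays. In the fit with blocks, the call was lost without the control Tcon, control Treg or K14 Tcon pair (limma adjusted p 0.124 to 0.148). It was kept without the K14 Treg pair (limma adjusted p = 0.0359).

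The promoter of Slc36a1 is shown because this gene passed the test and many lysosomal genes carry sites of the TFE factors, which bind CACGTG. The stretch from 250 bases before to 50 bases after the annotated start (RefSeq, GRCm38.p6, chr11:55204090-55204389, + strand) is printed 5′ to 3′; capitals mark CACGTG and the shorter ACGTG, searched on both strands, and every CACGTG also holds ACGTG on each strand.
Slc36a1: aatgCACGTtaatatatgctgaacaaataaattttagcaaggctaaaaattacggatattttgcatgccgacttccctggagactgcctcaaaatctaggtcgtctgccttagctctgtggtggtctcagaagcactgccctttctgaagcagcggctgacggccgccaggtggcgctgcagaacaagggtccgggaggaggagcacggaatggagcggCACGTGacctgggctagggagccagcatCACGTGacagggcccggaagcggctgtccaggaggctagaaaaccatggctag
It holds 2 copies of CACGTG, both near the start. Among 32851 promoters of 300 bases, 7.15% hold CACGTG and 19.6% hold ACGTG. Of the 29 tested transporters with a promoter in the table, 5 hold CACGTG (Slc1a6, Slc1a7, Slc27a1, Slc36a1 and Slc38a7) and 13 hold ACGTG. An AP-1 site, TGANTCA, is in 7.81% of all promoters and in 3 of the 29. The counts over the 29 are by gene, with a match in any promoter of the gene, while the percentages are by promoter. Some of the 29 genes, Slc27a1 among them, have several promoters, so counts and percentages cannot be compared directly. A match describes the letters and is not evidence of binding.

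Several other amino acid and creatine carriers were higher in gut in all 4 pairs without passing the test. Over all genes 14.3% were higher in gut in all 4 pairs and 20% lower in all 4; of the transporters, 8 of 38 were higher and 5 lower in this way. Slc6a8, the creatine transporter, read log2 5.71, 5.46, 5.43 and 8.28 in spleen (control Tcon, control Treg, K14 Tcon, K14 Treg) and 9.04, 8.35, 10.54 and 9.84 in gut. The K14 Treg pool was the only spleen sample above background, and it lay just below the lowest gut sample. The log2 difference was 3.22 ± 0.58 (SE, 4 of 4 pairs higher, limma adjusted p = 0.0597).

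Slc38a2, a sodium-coupled carrier of glutamine and other small neutral amino acids that cells induce when amino acids run short, read log2 10.71, 11.52, 11.95 and 10.98 in spleen and 13.07, 12.01, 12.68 and 12.32 in gut. The tissues did not overlap, but gut control Treg lay within 0.1 log2 of spleen K14 Tcon. The log2 difference was 1.23 ± 0.35 (SE, 4 pairs, adjusted p = 0.122 by limma). The probes of this gene disagreed: its other 2 probes, also above background on every array, spanned log2 8.32 to 9.17 and 7.53 to 8.09 over all 8 arrays, with no separation of tissues.

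Slc7a10, a carrier of small neutral amino acids, read 5.71, 6.06, 5.58 and 6.85 in spleen and 7.11, 6.97, 7.13 and 7.41 in gut on the log2 scale. It was above background on all gut arrays and on the K14 Treg array of spleen, and the log2 difference was 1.11 ± 0.22 (4 of 4 pairs, limma adjusted p = 0.0726). Slc3a2, the heavy chain that carries Slc7a5 and its relatives to the membrane, had 1 dim probe, above background on 3 gut arrays and no spleen array; its difference was at least 1.02-fold (measured log2 0.98 ± 0.19, limma adjusted p = 0.0671). Slc2a8, a hexose carrier of internal membranes, was higher by log2 0.84 ± 0.24 (4 of 4 pairs, limma adjusted p = 0.123). Slc7a9, the cystine and basic amino acid carrier of gut and kidney epithelium, was above background on 3 gut arrays and no spleen array, and gut K14 Treg read 5.66, the same as spleen K14 Treg. Slc1a1, a glutamate carrier, was above background on the control arrays of gut only, at log2 7.35 in Tcon and 6.87 in Treg. Its other probe was above background in gut control Treg only (log2 7.06) and read 5.36 in gut control Tcon. The other probes of Slc2a8 and Slc7a9 were below background on every array.

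In the other direction, Slc38a9, the lysosomal arginine sensor of mTORC1, read log2 7.96, 8.46, 9.19 and 9.91 in spleen and 6.26, 8.23, 7.14 and 8.69 in gut. All 4 pairs were lower in gut, while the tissues overlapped; the log2 difference was -1.30 ± 0.33 (SE, limma adjusted p = 0.106). Slc7a5, the large neutral amino acid carrier, read 11.35, 10.46, 11.27 and 10.74 in spleen and 10.70, 9.93, 10.24 and 10.73 in gut. Its difference was -0.56 ± 0.21 log2 (4 of 4 pairs, limma adjusted p = 0.198), and the K14 Treg pair was nearly level. Slc16a10, an aromatic amino acid carrier, differed by -0.35 ± 0.19 log2 (limma adjusted p = 0.324); Slc36a2 and Slc6a19, relatives of Slc36a1 and Slc6a8, were also lower in all 4 pairs.

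**Figure D2:**
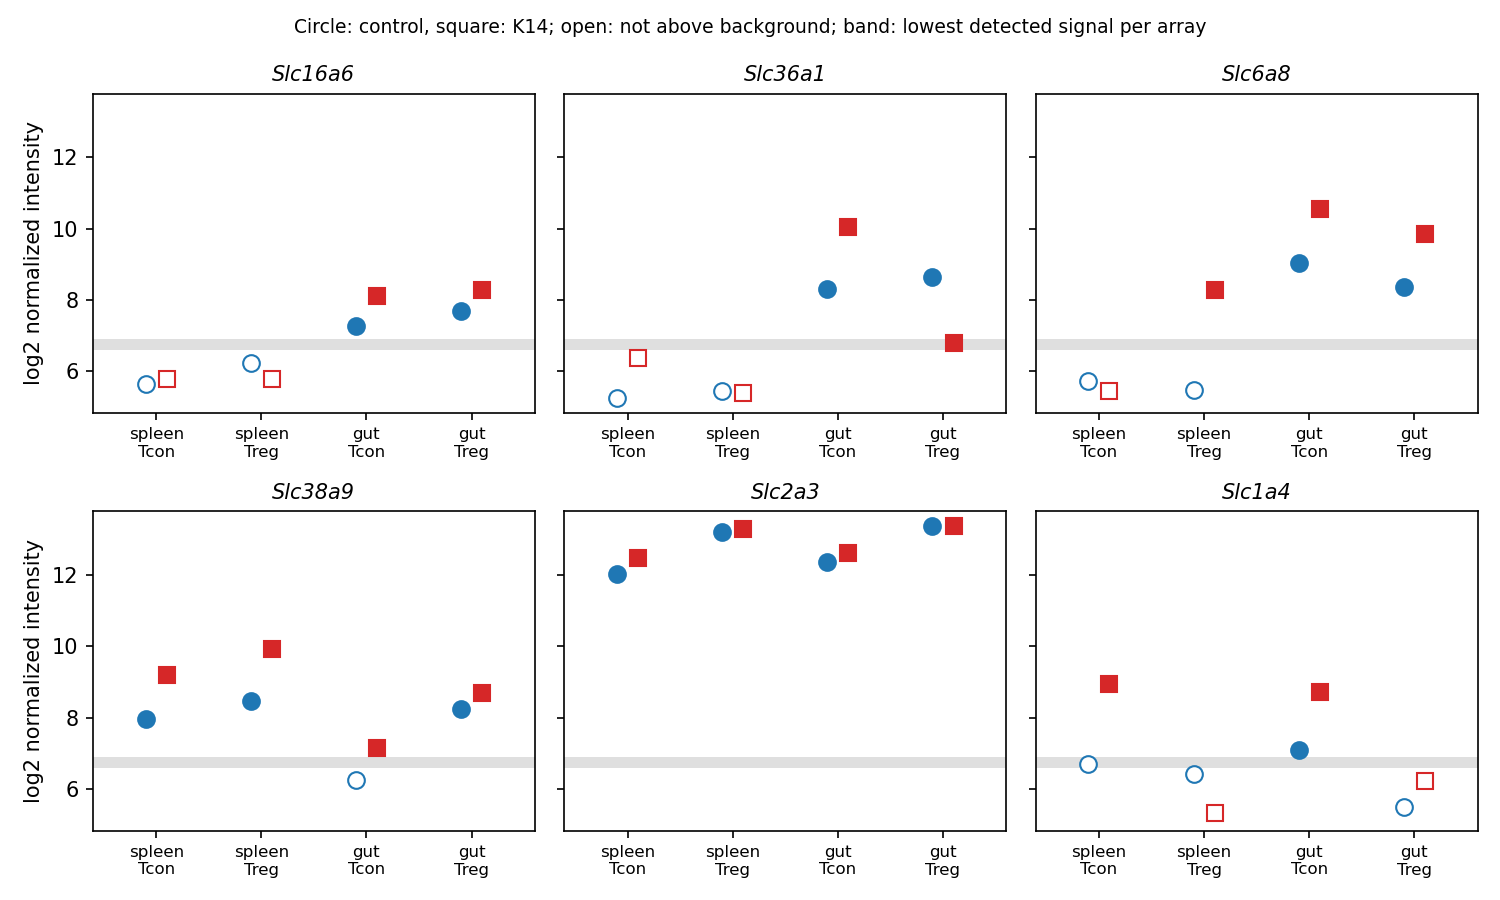
Log2 normalized intensity of 6 transporter genes on the 8 arrays, with circles for control and squares for K14 pools; open symbols are not above background, and the grey band spans the lowest detected reading of each array (log2 6.58 to 6.89). Slc16a6 and Slc36a1 were above background in gut only, Slc2a3 was higher in each Treg pool than in its matched Tcon pool, and Slc1a4 was above background in Tcon pools only.

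The pathway genes around these transporters were counted in lists. Of 11 tested genes of the amino acid response, 10 were higher in gut, with a median log2 difference of 0.64 against -0.07 over all genes, and 2 passed. They were Atf3, a stress-induced transcription factor, at least 5.63-fold higher (measured log2 3.88 ± 0.26, limma adjusted p = 0.011), and Cebpb, a leucine zipper factor also induced in inflammation, higher by log2 1.5 ± 0.21 (limma adjusted p = 0.0459). Atf4, the central transcription factor of the response, differed by log2 1.31 (limma adjusted p = 0.103), and Asns, asparagine synthetase, by 1.23 (limma adjusted p = 0.146). Among 17 enzymes of glutamine and amino acid use, 8 were higher in gut and 1 passed, Odc1, the rate-limiting enzyme of polyamine synthesis, at log2 2.13 ± 0.18 (limma adjusted p = 0.0158).

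Of 8 tested regulators and chaperones of transporters, Slc38a9 among them, 4 were higher and 4 lower in gut, and 1 passed. This was Arrdc4, an arrestin-fold relative of Txnip that restrains glucose uptake, at log2 2.13 ± 0.15 between tissues (limma adjusted p = 0.0139). Txnip itself differed by -1.17 (limma adjusted p = 0.0591) and Nedd4l, a ubiquitin ligase of membrane transporters, by -2.00 (limma adjusted p = 0.0551). None of 21 tested genes of mTORC1 and amino acid sensing, 12 of glucose and lactate use or 11 of fatty acid uptake and use passed between tissues. Hk2, a hexokinase, had the lowest adjusted p of those that were higher (log2 1.91 ± 0.35, limma adjusted p = 0.0609), and Pdk1, the kinase that inhibits pyruvate dehydrogenase, was lower by -1.19 ± 0.19 (limma adjusted p = 0.051). Of the 9 tested epithelial markers, 6 were higher and 3 lower in gut (median log2 1.12). Krt8 (log2 3.33, limma adjusted p = 0.0461) and Reg3b (at least 16.7-fold, limma adjusted p = 0.00898) passed as higher. Other epithelial markers, among them Fabp1, Fabp2 and Sis, were below background on every array. All 9 tested markers of exocrine pancreas were higher in gut (median log2 1.96) without passing. Of the 13 tested myeloid and dendritic markers, 9 were lower in gut (median log2 -0.91) and 2 passed, S100a9 (at least 19.7-fold lower, limma adjusted p = 0.0271) and Ly6c1 (log2 -3.41 ± 0.35, limma adjusted p = 0.0254). Lower in gut were also 6 of 6 B cell markers (median -0.90, none passed), 5 of 6 erythroid markers (median -0.84; Slc4a1 passed, at least 9.62-fold lower, limma adjusted p = 0.0154) and 8 of 11 markers of proliferating cells (median -0.25, none passed). The part of other cell types in these differences was not tested.

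Between cell types, no transporter passed the test. Glucose carrier Slc2a3 came nearest and was higher in Treg than Tcon in 4 of 4 pairs. By limma, 0 of 38 transporters passed, while 0.707% of all genes did, and 5 transporters had an unadjusted p under 0.05, where 15.3% of all genes did. Over all genes 11.8% were higher in Treg in all 4 pairs and 13.7% lower in all 4; of the transporters, 5 were higher and 5 lower. Their median log2 difference was 0.08, against -0.03 over all genes, with 21 higher and 17 lower. It was -0.017 without the gut control Tcon array, in a fit without blocks for pairs. Of all genes, 46.6% were higher in Treg on average. Markers of other cells moved with cell type without passing: 11 of 13 myeloid and dendritic markers were lower in Treg (median log2 -0.83), as were 9 of 9 of exocrine pancreas (-1.23) and 7 of 9 of intestinal epithelium (-0.39), while 9 of 11 markers of proliferating cells were higher (0.76). Their part in the transporter differences was not tested.

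Slc2a3, a high-affinity glucose carrier, read log2 12.04, 12.48, 12.36 and 12.63 in Tcon and 13.20, 13.28, 13.38 and 13.38 in Treg (spleen control, spleen K14, gut control, gut K14). Every Treg pool lay above every Tcon pool. The difference was 1.91-fold, log2 0.93 ± 0.16, with pairs of 1.16, 0.80, 1.02 and 0.74 in that order (limma adjusted p = 0.0984). It passed on the authors' log2 values, without background correction, in an additive model and with robust variance moderation (adjusted p 0.0356 to 0.0487), and the difference over all settings spanned log2 0.85 to 0.99. Slc2a1, the other main glucose carrier of T cells, read 11.30, 11.01, 10.66 and 11.08 in Tcon and 11, 11.06, 11.18 and 11.58 in Treg; the cell types overlapped and the log2 difference was 0.19 ± 0.20 (limma adjusted p = 0.702). Arrdc4 was higher in Treg by log2 2.59 ± 0.30 (4 of 4 pairs, limma adjusted p = 0.0488), and it was the 1 gene of the 8 regulators that passed. Of the 12 tested genes of glucose and lactate use, 3 were higher and 9 lower in Treg and none passed; Pdk1 differed by -1.11 ± 0.22 (limma adjusted p = 0.126).

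Among amino acid carriers, Slc38a9 was higher in Treg in all 4 pairs, by log2 1.18 ± 0.30 (pairs 0.49, 0.72, 1.97 and 1.55 in the order given for Slc2a3, limma adjusted p = 0.182). Its second probe that read above background gave 6.66, 7.39, 6.06 and 5.89 in Tcon and 7.83, 8.64, 6.74 and 6.95 in Treg, also higher in Treg in all 4 pairs, while the other was below background throughout. Slc38a7, a carrier that exports glutamine from lysosomes, differed by log2 0.87 ± 0.35 (limma adjusted p = 0.341), most in gut, where control Tcon and Treg read 7.33 and 8.41 and K14 Tcon and Treg 5.82 and 7.80. Slc6a6, the taurine carrier, stayed between log2 12.96 and 13.69 on all arrays. It was higher in Treg in all 4 pairs, by log2 0.28 ± 0.17 (limma adjusted p = 0.486). Slc38a1, a glutamine carrier, differed by 0.25 ± 0.17 within a range of log2 6.70 to 7.55.

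Slc1a4, a carrier of alanine, serine and cysteine, ran the other way and had the most negative mean difference. In Tcon it read log2 6.70, 8.95, 7.09 and 8.72 (spleen control, spleen K14, gut control, gut K14), above background on all but the spleen control array. In Treg it read 6.41, 5.33, 5.50 and 6.23, never above background. The groups did not overlap, and Tcon was at least 2.18-fold higher (measured log2 difference -1.99 ± 0.55, limma adjusted p = 0.205).

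The promoter of Slc1a4 is shown because this gene is a known target of Atf4, which binds sites with the core TGATGNAAN. It spans the same distances from the annotated start (RefSeq, GRCm38.p6, chr11:20332664-20332963, − strand, printed along the gene, 5′ to 3′), and capitals mark the match, which lies on the opposite strand and runs across the start.
Slc1a4: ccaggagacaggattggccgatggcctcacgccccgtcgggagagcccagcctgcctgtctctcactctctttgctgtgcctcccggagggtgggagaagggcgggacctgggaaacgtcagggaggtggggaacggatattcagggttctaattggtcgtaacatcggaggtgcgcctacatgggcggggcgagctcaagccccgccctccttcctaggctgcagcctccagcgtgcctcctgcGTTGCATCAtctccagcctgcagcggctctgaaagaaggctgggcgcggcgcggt
That core is in 3.95% of the 32851 promoters and, counted by gene, in 2 of the 29 transporters searched, Slc1a4 and Slc7a7. Slc7a7 has several promoters, so this count and the percentage cannot be compared directly. In Treg against Tcon, 5 of the 11 genes of the amino acid response were higher, 6 lower and none passed.

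The remaining decreases were smaller. Slc7a8, a neutral amino acid carrier, was above background on the K14 Tcon arrays only (log2 6.91 in spleen and 7.03 in gut). Its other probe was below background on every array. The difference of Slc7a8, with all Treg arrays below background, had limma adjusted p = 0.204. Slc27a6, a fatty acid transport protein, read 7.89, 8.44, 6.45 and 10.71 in Tcon and 6.56, 6.36, 6.48 and 7.01 in Treg; the gut control pair was level, and the log2 difference was -1.77 ± 0.61 (limma adjusted p = 0.275). The aromatic amino acid carrier Slc16a10, the glutamate carrier Slc1a6 and Slc7a6, an exchanger of basic for neutral amino acids, were lower by -0.39, -0.26 and -0.23 log2 (limma adjusted p 0.374, 0.497 and 0.511). Slc7a5 was lower in Treg in 3 pairs and higher in the gut K14 pair (log2 0.49), with a mean of -0.42 ± 0.28. Slc16a3, the lactate exporter, stayed between log2 6.71 and 7.52. Of the other lists, 8 of 17 amino acid enzymes, 8 of 21 mTORC1 genes and 4 of 11 fatty acid genes were higher in Treg, and none passed.

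**Figure D3:**
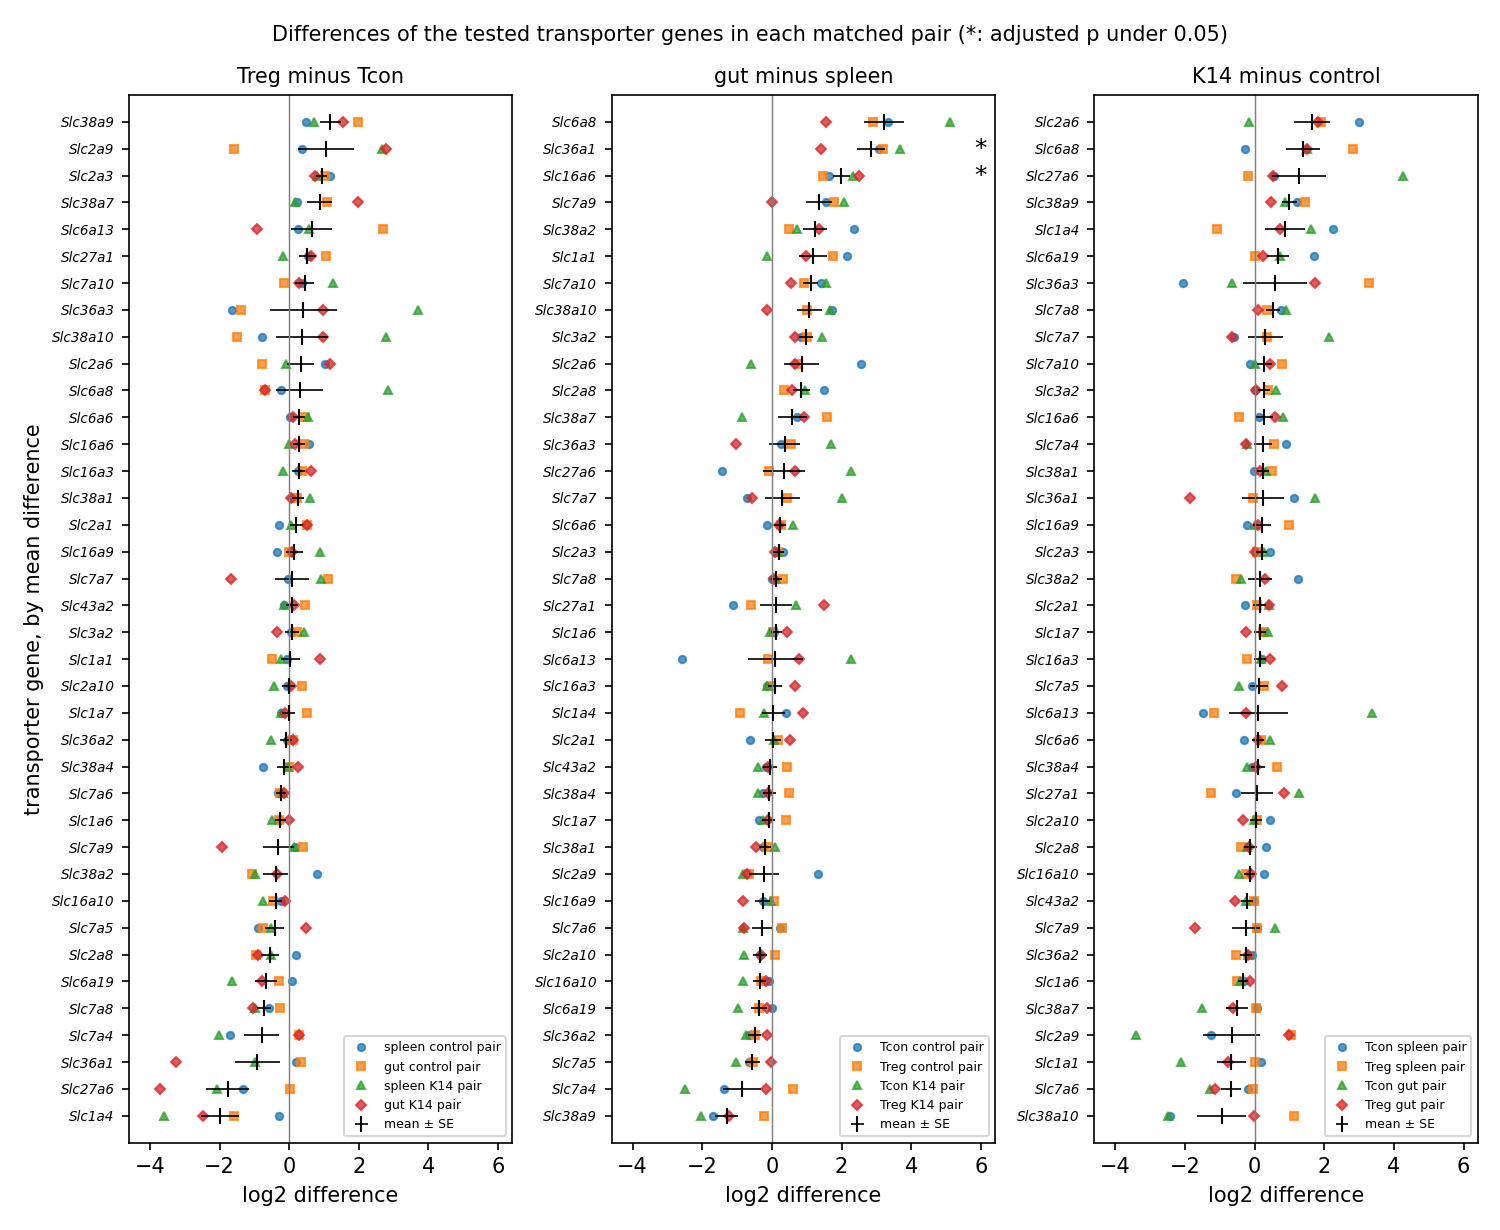
Log2 differences of the 38 tested transporter genes between Treg and Tcon, gut and spleen, and K14 and control, with a point for each of the 4 matched pairs, a bar for the mean with its SE, and a star for adjusted p under 0.05. Stars stand beside Slc16a6 and Slc36a1 in the comparison of gut with spleen, and no other gene carries one.

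Between genotypes, no gene of any kind passed: 0 of 7916 genes, 0%, at a limma adjusted p of 0.05. An unadjusted p under 0.05 was reached by 4 transporters and by 8.01% of all genes. Slc38a9 had the lowest adjusted p of the members: log2 7.96, 8.46, 6.26 and 8.23 in control and 9.19, 9.91, 7.14 and 8.69 in K14 (spleen Tcon, spleen Treg, gut Tcon, gut Treg), higher in K14 in 4 of 4 pairs by log2 1.0 ± 0.21 (limma adjusted p = 0.469). The tested probe of Slc38a9 thus had the same sign in every pair of all 3 comparisons, which use the same 8 arrays, and no difference of it passed. The second probe above background was higher in K14 in the other pairs but lower in gut Tcon. There it read log2 6.06 in control and 5.89 in K14, both below background. Over all genes 7.88% were higher in K14 in all 4 pairs and 8.62% lower in all 4, and of the transporters 4 were higher and 4 lower. The members' median log2 difference was 0.15, against -0.01 over all genes, with 27 higher and 11 lower. Of all genes, 47.7% were higher in K14 on average.

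Slc2a6, a hexose carrier of lysosomes, read log2 6.58, 7.60, 9.14 and 8.35 in control and 9.59, 9.5, 9.0 and 10.17 in K14 in the same order. Both spleen pairs were higher in K14, as was gut Treg, while gut Tcon was level; the log2 difference was 1.65 ± 0.52 (limma adjusted p = 0.53). Slc6a8 was higher in K14 in 3 pairs and close to level, both readings below background, in spleen Tcon (log2 1.39 ± 0.50, limma adjusted p = 0.578). Slc7a6 read 8.02, 7.70, 8.26 and 7.99 in control and 7.82, 7.64, 6.98 and 6.84 in K14, lower in 4 of 4 pairs and more in gut, by log2 -0.68 ± 0.28 (limma adjusted p = 0.636). Slc1a6 read 7.54, 7.27, 7.59 and 7.31 in control and 7.24, 6.74, 7.18 and 7.18 in K14, with a log2 difference of -0.34 ± 0.15 (limma adjusted p = 0.643). The genotypes did not overlap but nearly met, at 7.27 in control and 7.24 in K14. All readings were dim, and that of spleen K14 Treg was below background.

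Markers of other cells moved with genotype. All 11 tested markers of proliferating cells were higher in K14 (median log2 1.71), as were 12 of 13 myeloid and dendritic markers (1.21), 6 of 6 B cell markers (0.59) and 6 of 6 erythroid markers (0.83); none passed. Of 18 myeloid and dendritic markers with a probe, 3 to 8 were above background on control arrays, with a summed signal of 1194 to 7399, and 6 to 12 on K14 arrays, with 1662 to 24870. Of 17 markers of proliferating cells, 6 to 8 were above background on control arrays (summed signal 7756 to 11470) and 10 to 12 on K14 arrays (12070 to 22950). Their part in the transporter differences was not tested. By list, 10 of 17 amino acid enzymes, 8 of 21 mTORC1 genes, 7 of 11 amino acid response genes, 6 of 8 regulators, 7 of 12 glucose genes and 5 of 11 fatty acid genes were higher in K14, and none passed.

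No transporter passed a test of whether 1 difference depended on another factor, nor did any gene of the 7916 (0% in each of the 3 tests). An unadjusted p under 0.05 was reached by 3 transporters for the dependence of Treg minus Tcon on tissue, by 5 for the dependence of K14 minus control on cell type, and by 4 for its dependence on tissue; over all genes the shares were 7.28%, 4.88% and 6.23%. Slc7a4, a relative of the cationic amino acid carriers, was above background in the spleen Tcon pools only, at log2 7.47 in control and 8.37 in K14, against 5.78 to 6.39 elsewhere. Treg minus Tcon was -1.69 (control) and -2.03 (K14) in spleen and 0.29 in both gut pairs, whose readings were all below background; the dependence on tissue did not pass (limma adjusted p = 0.42). The K14 minus control difference was more positive in Treg than in Tcon for Slc38a10, for Slc36a3 and for the urate carrier Slc2a9, by log2 3.02 ± 0.50, 3.86 ± 0.79 and 3.34 ± 0.80 (limma adjusted p = 0.856 for each). It was more negative in Treg for Slc36a1, by log2 -2.37 ± 0.72, and for Slc1a4, by -2.11 ± 0.73, with Treg readings of Slc1a4 and spleen readings of Slc36a1 below background (limma adjusted p = 0.991 for both). Over the 38 members this dependence had a median of -0.10, against -0.02 over all genes, with 16 more positive and 22 more negative in Treg. Of all genes, 48.5% were more positive in Treg. Slc2a9, for instance, went from log2 7.93 to 6.67 in spleen Tcon and from 9.24 to 5.84 in gut Tcon, but from 8.30 to 9.34 in spleen Treg and from 7.63 to 8.62 in gut Treg. The K14 Tcon readings of Slc2a9 were below background in spleen and gut. Its other probes were below background, except for 1 on the gut K14 Treg array. Slc38a10 was below background in spleen K14 Tcon. Slc36a3 was below background in spleen control Treg, spleen K14 Tcon and gut control Treg. Slc27a1, a fatty acid transport protein, was lower in K14 in both spleen pairs and higher in both gut pairs, a log2 difference of 1.95 ± 0.41 (limma adjusted p = 0.611). Its readings in the spleen K14 pools and in gut control Tcon were below background.

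The members varied unevenly among themselves. Genes above background on every array, such as Slc6a6, Slc38a1, Slc16a3 and Slc1a7, for the most part stayed within 1 log2 over the 8 arrays, and the differences of the 13 such genes spanned -0.55 to 0.93 between cell types, -0.56 to 1.23 between tissues and -0.68 to 0.24 between genotypes. Exceptions were Slc38a2, Slc2a8, Slc7a5, Slc7a6 and Slc2a3. Slc38a1, Slc16a3 and Slc1a7 read at most log2 7.55, near the lowest detected readings (log2 6.58 to 6.89), so their narrow range does not show steady expression. Some genes that crossed the detection limit moved further, while Slc1a6, Slc16a9, Slc36a2 and Slc43a2 did so within 1 log2, and for several no factor of the design ordered the arrays. Slc6a13, a carrier of the neurotransmitter GABA and taurine, read 5.37 in gut control Tcon and 8.73 in gut K14 Tcon but 7.94 and 6.45 in the same pools of spleen. Slc7a7, an exchanger of basic amino acids, was highest in gut K14 Tcon (8.24) and below background on 3 arrays, and Slc6a19, the main neutral amino acid carrier of gut epithelium, was highest in spleen K14 Tcon (8.43). Slc16a9, Slc43a2 and Slc36a2 were above background on 2 or 3 arrays and never exceeded log2 7.47.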

How the data were processed

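Total RNA of 8 pools was labelled as cRNA and hybridised to Illumina mouse bead arrays, per the labels' protocols. Per the file headers, the deposited table holds, for every array, linear probe intensity beside the detection p-value. A second table, deposited by the authors, holds log2 values; its normalization is not given in the sources used here, and it served as an alternative. In R 4.3.3 with limma 3.58.1, nec inferred the background from the detection p-values and subtracted it, an offset of 16 added, and arrays quantile-normalized and logged (log2). Probes above background on at least 2 arrays were kept (10021), with the brightest probe per gene standing for it. Of 120 member probes, 43 passed. If none were expressed and detection was independent between arrays, 6.87 would pass, and this independence was not tested. Slc7a6os, which shares a prefix but is no family member, was left out.

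Each comparison was fitted with lmFit and eBayes with matched pairs as blocks (3 residual degrees of freedom, 2 for the interactions) and Benjamini-Hochberg adjustment over 7916 genes at 0.05. Against a side wholly below background, folds are lower bounds set against each array's lowest detected reading. No signal of a tested member came near the top of the scale (above 60000). Methods were tested on simulated data. Given in full were members past a test, the members with the largest differences of the same sign in 4 pairs and above background on the whole brighter side (up to 5 each way), and T cell transporters of general knowledge; a few more genes were named after their values were seen. Symbols matched RefSeq by Entrez ID for all 120 probes, and promoters came from RefSeq (GRCm38.p6). The members and lists were chosen with earlier results of these data known. The number of arrays limits the precision. Alternatives changed the background correction, normalization, offset, detection filter, probe choice and model, and left out pairs or the gut control Tcon array.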

Additional observations from a re-analysis of the deposited data

How the results depend on the processing

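The direction of 19 differences was compared across the 15 alternatives tried and was kept in each. They were those of the transporters past the test or with the largest differences of the same sign in 4 pairs. All 19 had the same sign in 4 pairs, so leaving out 1 pair could not reverse them. The additive model on all arrays and robust moderation leave these estimates unchanged, so they could not reverse them either. The directions of the other differences named were not compared across alternatives. Of the counts past the test, the gut against spleen count of 2 fell to 1 with the authors' log2 values (Slc16a6), with readings floored at the detection limit (Slc6a8), without a detection filter (Slc16a6) and without the gut control Tcon array (Slc16a6), and to between 0 and 1 with 1 pair left out; it was 3 without background correction, with detection on 4 arrays, in an additive model and with robust moderation. The adjusted p of Slc16a6 spanned 0.0136 to 0.113, with 0.056 on floored readings, and that of Slc36a1 0.0239 to 0.148, with 0.057 on the authors' values, 0.14 on floored readings, 0.0681 without a filter and 0.0509 in the additive model. Slc6a8 passed under 5 alternatives (lowest adjusted p 0.0369). The Treg against Tcon count rose from 0 to 1 (Slc2a3) with the authors' values, without background correction, in the additive model and with robust moderation, and stayed 0 with a pair left out. The K14 against control and interaction counts stayed 0. Over all genes, the counts were 56 between cell types and 188 between tissues. They became 100 and 466 on the authors' values and 110 and 462 in the additive model. With robust moderation they were 113 and 457, and without a filter 2 and 125. Without the gut control Tcon array, also in an additive model, they were 29 and 119. With 1 pair left out they were 0 between cell types and 0 to 33 between tissues. The causes were not tested, except that fewer pairs leave fewer degrees of freedom. The members' median Treg minus Tcon difference (log2 0.076) was 0.248 with detection on 4 arrays, -0.017 on floored readings and without the gut control Tcon array, and 0 on the authors' values, and spanned -0.062 to 0.092 with 1 pair left out. Their median gut minus spleen difference (0.118) was -0.001 without a filter and spanned -0.015 to 0.212 with 1 pair left out. Their median K14 minus control difference (0.148) was 0.073 on the authors' values, 0.103 without background correction, 0.091 with median centring, 0.033 without a filter, 0.089 without the gut control Tcon array and 0.11 to 0.183 with 1 pair left out. No paired analysis by replicate number was possible because each group held 1 sample and the numbers run with the genotype. The matched pairs were blocks in every fit except the additive model and the fit without the gut control Tcon array, which was also additive. Results without that array thus differ from the main fit in model as well as in arrays. Signal over background limits the genes that were below background on a whole side of a comparison. These were Slc16a6, Slc36a1, Slc1a4, Slc3a2, Slc1a1, Slc7a4, Slc7a8, Slc7a9, Slc16a9, Slc36a2 and Slc43a2. Other named genes, among them Slc6a8 and Slc2a9, were below background on some arrays.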
